A study of Mus musculus with 278 samples.

Results

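The cells described here are cultured keratinocytes of the mouse, the cell type that builds the epidermis, sequenced singly and set apart by how much mitotic transcript each one held. They belong to the AG library series, whose cell names begin with AG1neg (labelled untreated) or AG2pos (labelled treated). Each cell was scored by the mean log2(TPM + 1) of 6 genes of the late cell cycle (Mki67, Top2a, Ccnb1, Cdk1, Birc5 and Plk1), where TPM is a transcript level corrected for gene length, with equal totals for all cells. Within each treatment label the highest-scoring cells were then compared with an equal number of the lowest-scoring cells. The untreated set held 66 cells, of which 22 were high-score, 22 intermediate and 22 low-score. The treated set held 64 cells, of which 21 were high-score, 22 intermediate and 21 low-score. The comparison thus rested on 86 cells out of the 278 labelled cells of the whole series. A pair of treated low-score cells held closely alike values. They had 6281 and 6334 genes above 1 TPM, and Wfdc18 was their largest gene at 3.27% and 3.16% of TPM. Both were kept, and whether they are separate cells was not tested.

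Both sets came from co-cultures of 9 parts WT and 1 part K14ΔNβ-cateninER keratinocytes, grown from adult mouse dorsal skin. The latter carry a stabilised beta-catenin joined to an oestrogen receptor domain and driven by the keratin 14 promoter, so the transgene is active only in cells that use that promoter and only once 4-hydroxy-tamoxifen (4OHT) is added. Treated co-cultures received 200 nM 4OHT for 24 h and untreated ones the carrier alone. The authors found transgenic cells by reads from the transgene and left them out of their analysis. The values do not show which cells these were, and the labelled cells outnumber the WT cells that the authors kept, so transgenic cells may be among those described here. Cells were caught on a microfluidic chip for medium-sized cells, which leaves out large, terminally differentiated ones. The labels name no separate cultures or animals, so each treatment label is 1 set of libraries, and treatment and library set cannot be told apart.

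The cells held the keratins of their labelled type, keratinocytes. Krt14, a keratin of the basal layer, was above 1 TPM in all 66 untreated and all 64 treated cells, with medians of 4864 and 4997 TPM. Krt5, its partner keratin, was likewise above 1 TPM in every cell, with medians of 1596 and 1474 TPM. Krt10, a keratin of the suprabasal layers, was above 1 TPM in 53 of 66 and 59 of 64 cells, at far lower medians of 14.3 and 19.7 TPM. Itgb4, an integrin chain of the hemidesmosome, was listed at 0 in every cell of both sets. Because some ribosomal protein genes that every cell uses (Rpl31, for example) were also listed at 0 in whole groups of cells, a value of 0 is given here only as listed. Every cell sums to the same total, so the depth of single cells, which the authors filtered on a minimum of aligned reads, is not shown by the values, and the counting error of low values is unknown.

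A dividing cell passes through a gap phase (G1), DNA synthesis (S), a further gap (G2) and mitosis (M). Genes for DNA replication are switched on at the G1/S boundary, largely through E2F transcription factors, and genes for mitosis are switched on later, through the MuvB complex with B-MYB and FOXM1. In resting cells the DREAM complex, which shares the MuvB core, holds both groups down. In the epidermis proliferation takes place mainly in the basal layer, and cells leave the cell cycle as they move up and cornify.

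The score was spread widely. It ran from 0.11 to 9.04 with a median of 1.98 in the untreated set, and from 0.13 to 8.76 with a median of 2.05 in the treated set. The highest low-score cell and the lowest intermediate cell stood at 1.42 and 1.48 in the untreated set and at 0.84 and 0.86 in the treated set. At the upper boundary the neighbours stood at 4.26 and 4.51, and at 3.83 and 3.88. In the untreated set the widest step between neighbours lay just below that boundary, from 3.33 to 4.26. The cells were cut on the mean of the 6 genes, so the differences of these genes only describe the cut. Of the 6 genes, 5 differed by 5.47 or more in both sets. Birc5, which encodes the chromosomal passenger protein survivin, was the exception, with differences of 1.04 and 1.32 and with transcript in most low-score cells (median 6.15 and 5.39 TPM). Mki67, the standard proliferation marker, had a median of 0 TPM in low-score cells of both sets, against 137.5 and 219 TPM in high-score cells.

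**Figure D1:**
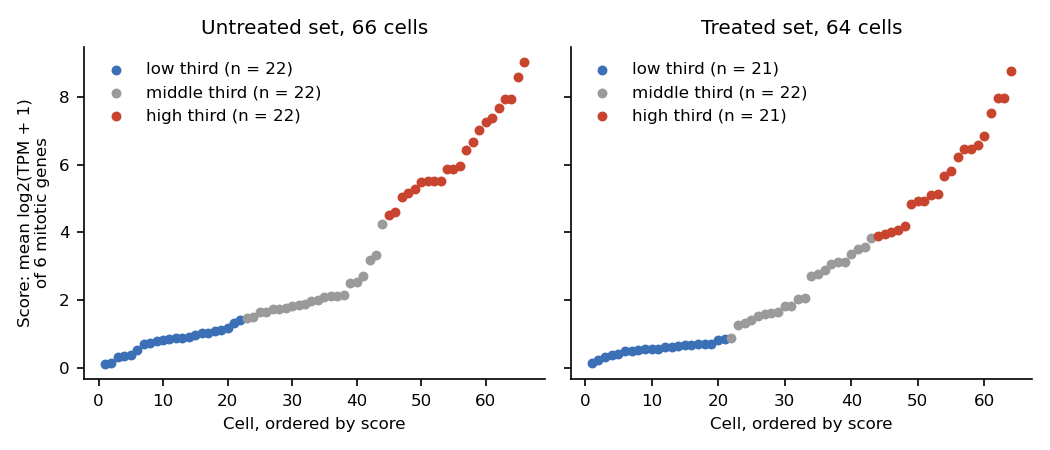
Cells of the untreated (left) and treated (right) AG sets in order of score on the x axis, with the score (mean log2(TPM + 1) of the 6 genes) on the y axis; each point is 1 cell, coloured by its group of low, middle or high score. Intermediate cells reach 4.26 and 3.83, with a step from 3.33 to 4.26 in the untreated set, and high-score cells reach 9.04 and 8.76.

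For every other gene the mean log2(TPM + 1) of low-score cells was subtracted from that of high-score cells within each set. A difference of 1 is a doubling on this scale, and it understates the change of genes with low TPM. A gene was counted as higher or lower when its difference was at least 1 in the same direction in both sets. Since the groups were cut from measured values of the same cells, and 2 sets cannot give an exact two-sided p below 0.5, no p-values are given and every difference is a description of its size. Of 10934 genes tested, 444 were higher in high-score cells (4.06%) and 88 were lower (0.805%). The untreated set alone gave 1030 higher genes (9.42%) and the treated set alone 1046 (9.57%), so that the shared 444 were 43.1% of those of the untreated set and 42.4% of those of the treated set. The shared lower genes were only 16.7% and 17.4% of the 528 (4.83%) and 506 (4.63%) lower genes of the single sets. The median difference over all genes was 0.02 and 0.07, and across genes the differences of the sets correlated with r = 0.50 (Pearson, 10934 genes, which are not independent replicates).

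Most genes of the mitotic lists were higher. Of 80 tested members of the lists for mitotic kinases, the anaphase-promoting complex, the kinetochore and the spindle, 60 were higher (75%, against 4.06% of all genes) and 0 were lower. Their median difference was 3.10 in both sets. Of 47 genes of the G1/S transition and DNA replication, 41 were higher and 0 lower, with medians of 2.42 and 2.20.

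Promoters of such genes are known for a pair of elements, the CCAAT box bound by NF-Y and the cell cycle genes homology region (CHR) through which MuvB complexes act. To show how these elements sit in members with large differences, sequences before the RefSeq start site (GRCm38.p6) are given for some higher genes. They were taken in order of difference from the kinase, kinetochore and G1/S lists, where the printed stretch holds such an element. Genes of a single chromosome, and genes without a promoter under their own symbol, were passed over. The genes printed are thus not always those with the largest differences. All read 5′ to 3′ along the gene, and capitals mark CCAAT or its reverse complement ATTGG, and TTTGAA, the letters searched for the CHR, on either strand.
Ccnb2, chr9:70421555-70421804, minus strand: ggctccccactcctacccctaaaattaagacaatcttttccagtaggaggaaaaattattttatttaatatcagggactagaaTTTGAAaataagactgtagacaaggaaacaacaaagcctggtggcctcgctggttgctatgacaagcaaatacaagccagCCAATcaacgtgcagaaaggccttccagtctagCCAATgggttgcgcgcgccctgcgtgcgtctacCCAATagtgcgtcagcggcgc
Aurka, chr2:172370571-172370690, minus strand: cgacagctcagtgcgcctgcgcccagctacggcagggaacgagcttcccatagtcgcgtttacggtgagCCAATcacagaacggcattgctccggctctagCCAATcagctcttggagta
Bub1b, chr2:118598091-118598210, plus strand: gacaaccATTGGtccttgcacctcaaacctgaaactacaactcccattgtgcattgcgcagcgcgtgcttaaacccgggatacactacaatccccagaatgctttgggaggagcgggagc
Cenpw, chr10:30200561-30200680, minus strand: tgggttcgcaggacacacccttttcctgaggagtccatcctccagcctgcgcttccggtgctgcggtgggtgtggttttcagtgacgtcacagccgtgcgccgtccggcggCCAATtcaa
Rrm2, chr12:24708121-24708240, plus strand: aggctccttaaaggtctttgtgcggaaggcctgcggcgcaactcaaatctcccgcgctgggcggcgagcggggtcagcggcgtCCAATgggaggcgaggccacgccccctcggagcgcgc
Chaf1a, chr17:56040296-56040415, plus strand: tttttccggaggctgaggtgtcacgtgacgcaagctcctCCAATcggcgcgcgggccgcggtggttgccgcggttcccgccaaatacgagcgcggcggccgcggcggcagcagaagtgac

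The Ccnb2 stretch holds 3 CCAAT boxes, beginning 87, 54 and 21 bases before the start and thus 33 bases apart, and Aurka holds 2 boxes 32 bases apart. In Ccnb2 a TTTGAA lies farther upstream than the boxes. Ccnb2 is printed with 250 bases and the other genes with 120. Cenpw also holds a TTTGAA within 250 bases before the start, outside its printed stretch. After the start, beyond the printed stretches, a TTTGAA begins at base 5 in Ccnb2, at base 33 in Aurka and at base 41 in Bub1b. Of the 80 mitotic list genes, 64 matched the promoter table (80%), with 69 promoters. Within 250 bases before the start, CCAAT was found on either strand in 68.1% of these, against 36.3% of the 10568 promoters of all tested genes that matched and 33.8% of all 32851 promoters in the table. TTTGAA was found in 26.1%, against 10.996% and 15.99%, and both together in 23.2%, against 4.18% and 5.55%. The E2F cores TTCGCGC or TTGGCGC were found on either strand in 4.35%, against 5.56% and 3.14%. The second core can share its TTGG with ATTGG, so that a stretch may count for both motifs. A match is a description of letters, not of a bound site. Only 27 of the 41 higher G1/S genes matched the table, so no share is given for them.

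Among the cyclins and kinases of G2 and mitosis, 14 of 16 were higher, with median differences of 3.90 and 3.33. Ccnb2 (chr9:70407692-70421547), a B-type cyclin that activates CDK1, had the largest mean difference of both sets among the list genes outside the score. In low-score cells its lowest, median and highest values were 0, 0 and 220 TPM in the untreated set and 0, 0 and 279 TPM in the treated set. In high-score cells they were 0, 775 and 2164 TPM, and 0, 541 and 2560.5 TPM. Most high-score cells thus lay above all low-score cells, but 3 high-score cells of each set were listed below 1 TPM, so the groups overlapped. The difference was 6.44 and 7.42. Cdc25c, the phosphatase that releases CDK1 for mitosis, differed by 5.03 and 6.77. Pbk, a mitotic protein kinase, differed by 5.91 and 5.80, and Melk, a kinase of proliferating cells, by 3.61 and 5.33. Aurkb, the kinase of the chromosomal passenger complex, differed by 4.19 and 4.12. The 2 members that missed the limit were Cdc25b, at 0.50 and 0.51, and Wee1, the kinase that restrains CDK1, at 0.58 and 2.09.

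The anaphase-promoting complex marks cyclins and securin for destruction. Of 13 tested members of its list 6 were higher, with medians of 1.11 and 1.05. Cdc20, the activator of the complex in mitosis, had a median of 0 TPM in low-score cells and of 66.4 and 130 TPM in high-score cells, a difference of 5.06 and 5.70. Ube2c, the ubiquitin-conjugating enzyme that works with the complex, was already present in low-score cells at medians of 4.87 and 2.07 TPM and reached 120 and 65.2 TPM, a difference of 4.26 and 3.84. Gmnn, which encodes the licensing inhibitor geminin, differed by 4.08 and 2.97, and Fbxo5, an inhibitor of the complex, by 3.18 and 2.72. The 7 members that missed the limit were the core subunits Anapc1, Anapc4, Cdc16 and Cdc27, Fzr1, which encodes the activator CDH1, Ube2s, a further ubiquitin-conjugating enzyme of the complex, and Pttg1, the gene of securin.

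Of 23 genes of the spindle checkpoint, centromere and kinetochore, 20 were higher, with medians of 3.67 and 3.38. Ndc80 (chr17:71496100-71526857), the kinetochore protein that grips microtubules, had the largest difference of the list in both sets, at 5.71 and 7.77. In low-score cells its highest values were 14.8 and 2.09 TPM and its median was 0 in both sets. In high-score cells the lowest, median and highest values were 0, 150.001 and 1065 TPM in the untreated set and 0, 332 and 1843 TPM in the treated set. It was above 1 TPM in 17 of 22 and 20 of 21 high-score cells and in 1 low-score cell of each set. Cenpe, a kinetochore motor, differed by 5.32 and 6.67, and Cdca8, the passenger protein borealin, by 4.78 and 5.38. Bub1b, which encodes the checkpoint protein BubR1, differed by 4.02 and 5.16. Bub3, Cenpm and Sgo2a missed the limit.

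The list of mitotic kinesins, spindle and cytokinesis genes had 20 of 28 members higher, with medians of 2.90 and 3.40. Ckap2l, which encodes a spindle-associated protein, had the largest difference, at 6.31 and 7.23. Kif20b, a kinesin of cytokinesis, differed by 5.81 and 6.67, and Ckap2, a relative of Ckap2l, by 5.55 and 6.44. Anln, which encodes the contractile-ring protein anillin, had medians of 0 TPM in low-score cells and of 173.3 and 183.5 TPM in high-score cells, a difference of 6.21 and 5.59. The 8 members that missed the limit were Dlgap5, Kif20a, Kif3a, Kifc1, Nusap1, Racgap1, Tuba1b and Tuba1c.

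Of 25 genes of condensin, cohesin and nuclear chromatin, 19 were higher (76%, against 4.06% of all genes) and 0 lower, with medians of 2.33 and 1.86. Smc2, a core subunit of both condensins, was never listed at 0 in a high-score cell: its lowest, median and highest values there were 10.7, 106.4 and 479 TPM in the untreated set and 4.92, 125.8 and 243 TPM in the treated set. In low-score cells the corresponding values were 0, 0.72 and 17.3 TPM and 0, 3.16 and 88.2 TPM. The ranges overlapped, and the difference was 5.13 and 4.22. The condensin subunits Ncapg and Ncapg2 differed by 4.64 and 4.63 and by 5.18 and 3.22. Asf1b, a chaperone that hands histones to replicating chromatin, differed by 4.56 and 5.10.

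**Figure D2:**
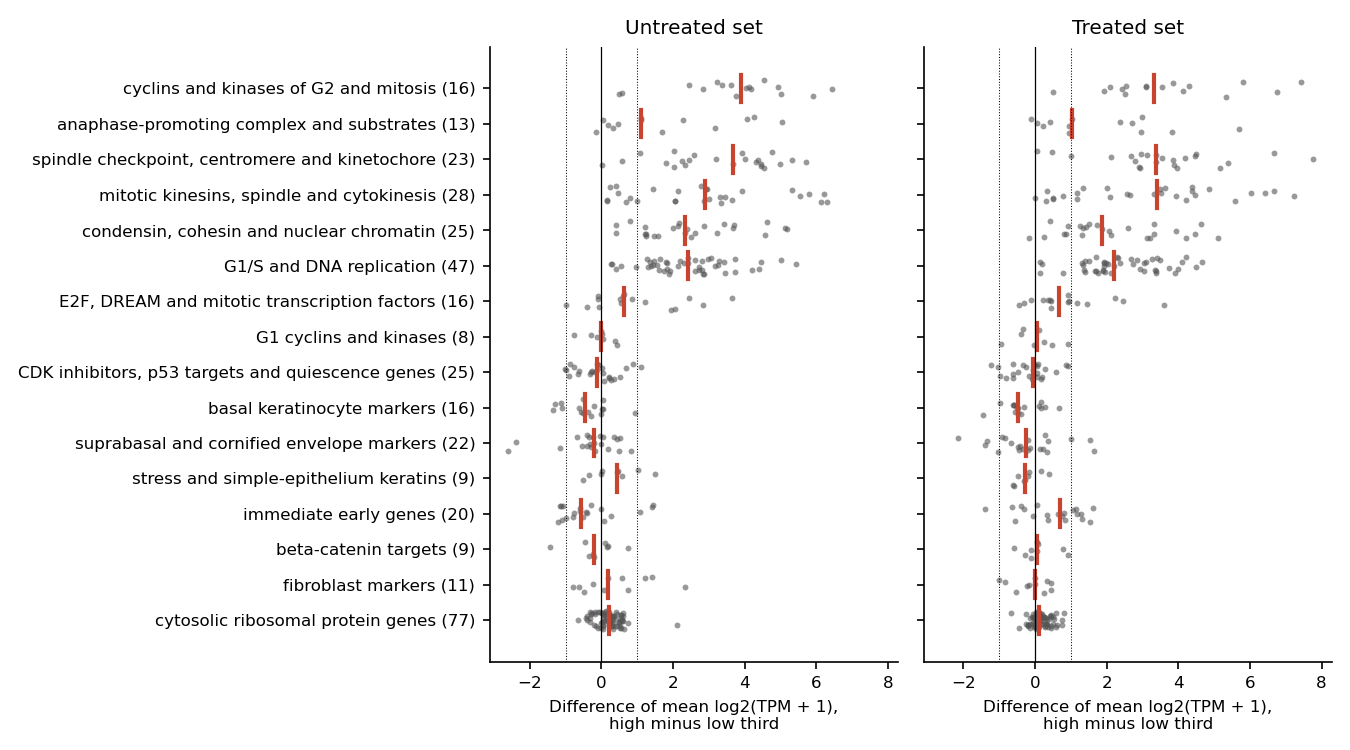
Differences of mean log2(TPM + 1), high-score minus low-score cells, on the x axis for each tested gene (grey points) of 16 lists (rows, with the number of genes), in the untreated (left) and treated (right) sets. Red bars mark list medians and dotted lines the limit of 1 in either direction; the 4 mitotic lists, chromatin and G1/S genes have medians above 1, and the lists of G1 cyclins, CDK inhibitors, keratinocyte markers and ribosomal proteins have medians between -0.48 and 0.21.

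The G1/S and DNA replication genes were higher almost throughout, although none of them entered the score. Rrm2 (chr12:24708241-24714146), a subunit of ribonucleotide reductase, which makes deoxyribonucleotides, led the list. Its lowest, median and highest values in low-score cells were 0, 5.16 and 264 TPM in the untreated set and 0, 14.1 and 134.4 TPM in the treated set. In high-score cells they were 65.6, 256 and 4148 TPM and 0, 250.5 and 3036 TPM. All but 1 of the high-score cells held more than 1 TPM, yet the ranges overlapped in both sets. The difference was 5.44 and 4.66. Tk1, a thymidine kinase, differed by 4.47 and 4.49, Chaf1a, a subunit of the histone chaperone that follows the replication fork, by 5.01 and 3.74, and Mcm4, part of the replicative helicase, by 3.74 and 4.22. Pcna, the sliding clamp of the polymerases, was present in low-score cells at medians of 57.99 and 83.7 TPM and stood at 234 and 231 TPM in high-score cells, a difference of 1.75 and 1.69. The 6 members that missed the limit were Ccne1, Cdc6, Lig1, Orc1, Rpa3 and Slbp. Ccne1, which encodes cyclin E, and Cdc6, a factor that licenses origins in G1, differed by only 0.56 and 0.15 and by 0.27 and 0.18.

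Replication and mitotic transcript were then set side by side cell by cell. Over the cells of a set, the mean log2(TPM + 1) of the G1/S list correlated with that of the 4 mitotic lists with r = 0.68 in 66 untreated and r = 0.71 in 64 treated cells. These points share their library, cell and normalisation and are a description only. The median mitotic list mean was 1.85 in low-score and 4.61 in high-score cells of the untreated set, where no low-score cell reached the lowest high-score cell. In the treated set the medians were 1.81 and 5.04, and only 1 high-score cell, at 1.71 and with 4380 detected genes, lay below any low-score cell. That cell was below 13 of 21 low-score cells, whereas the next high-score cell, at 3.77, was above all of them. For the G1/S list the medians were 1.37 and 4.06, and 1.55 and 3.84. Of the untreated low-score cells 5 of 22 lay above the lowest high-score cell, and of the treated ones 14 of 21 did so, or 6 of 21 when the same treated cell was left out. Conversely, 3 of 22 and 4 of 21 high-score cells lay below the highest low-score cell for the G1/S list. Among them were an untreated cell with a mitotic list mean of 4.53 and a G1/S list mean of 1.78, with 4458 detected genes, and a treated cell with 6.12 and 1.96, with 6723. All 3 untreated cells held few detected genes, at 3816, 4294 and 4458 against a high-score median of 6447. The 4 treated cells held 4307, 4380, 5716 and 6723, against a median of 6515. The part of missed transcripts in these low G1/S means was not tested. For the G1/S list 3 and 5 of the 22 intermediate cells of each set lay above the median high-score cell. Their mitotic list means ran from 2.39 to 3.45 and from 2.39 to 4.08, above every low-score cell of their set and below the median high-score cell.

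In the list of E2F, DREAM and mitotic transcription factors 4 of 16 genes were higher (25%, against 4.06% of all genes) and 0 lower, with medians of 0.63 and 0.68. Foxm1, an activator of mitotic genes, had medians of 0 TPM in low-score cells and of 6.03 and 17.0 TPM in high-score cells, a difference of 2.46 and 3.61. Mybl2, which encodes B-MYB, differed by 2.85 and 2.45, and E2f8, a repressor within the E2F family, by 3.66 and 2.23. Tfdp1, the dimer partner of E2F proteins, was present in both groups and differed by 1.22 and 1.45. E2f1, the classical activator of G1/S genes, differed by -0.07 and 0.93. The retinoblastoma family genes Rb1, Rbl1 and Rbl2 were also among the 12 that missed the limit.

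None of the genes listed for the machinery of G1 and for the brakes of the cycle passed the limit. With 4.06% of all genes higher and 0.805% lower, a count of 0 in lists of this size is near the background, and the levels are given as values only. Of 8 G1 cyclins and kinases 0 were higher and 0 lower, and their medians were -0.0018 and 0.04. Ccnd1, which encodes cyclin D1, had medians of 71.9 and 69.99 TPM in low-score and high-score cells of the untreated set and of 45.5 and 115.4 TPM in the treated set, differences of -0.12 and 0.92. Cdk4, its kinase partner, differed by 0.45 and -0.40, Cdk6 by -0.28 and -0.32 and Cdc25a, a phosphatase that promotes S-phase entry, by 0.05 and 0.48. Of 25 CDK inhibitors, p53 targets and quiescence genes, 0 were higher and 0 lower, with medians of -0.11 and -0.06. Cdkn1a, which encodes the CDK inhibitor p21, was above 1 TPM in 16 low-score and 16 high-score cells of the untreated set and in 19 and 19 of the treated set, and differed by -0.12 and -0.33. The largest differences of the list that kept one sign were 1.10 and 0.59 for Btg2, an antiproliferative gene, -0.98 and -0.62 for Phlda3, a p53 target, 0.69 and 0.91 for Sesn2, a stress-response gene, and -0.19 and -1.22 for Cdkn2a, the gene of p16 and p19ARF. With cyclin D1 and p21 at overlapping levels in both groups, the low-score cells are described here by their score and not as resting, since cells in G1 and cells outside the cycle were not told apart.

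**Figure D3:**
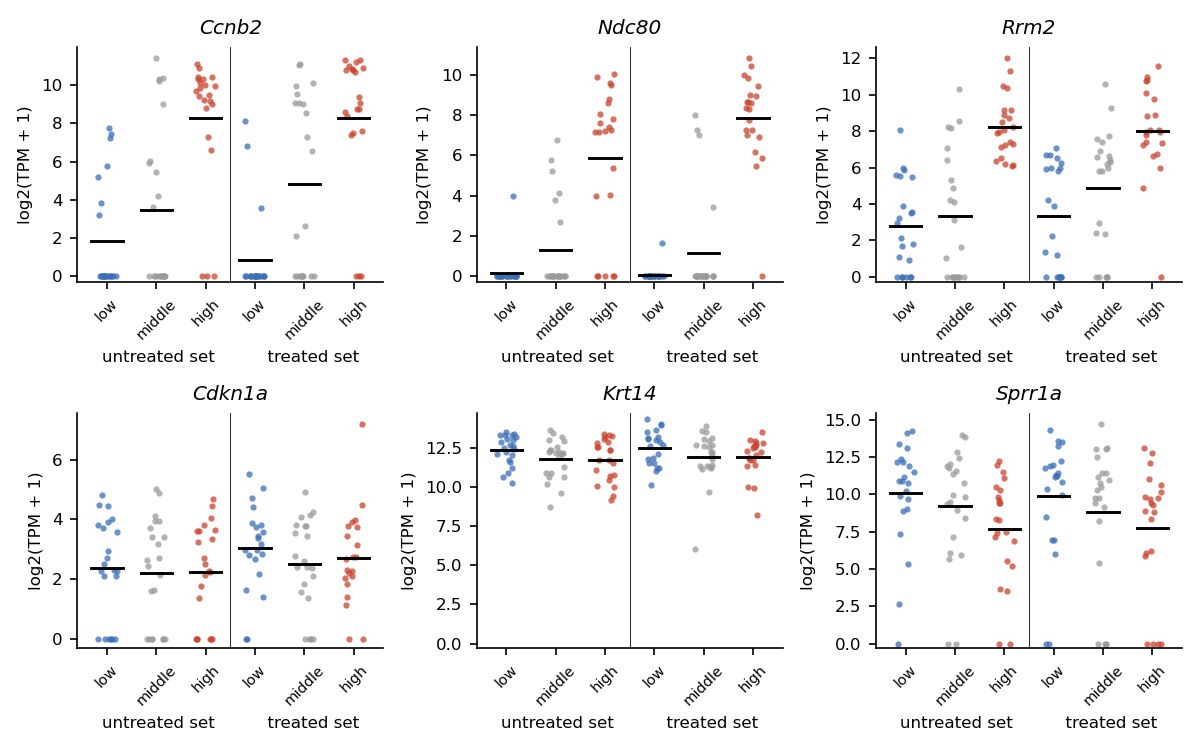
log2(TPM + 1) of 6 genes (y axes) in each cell of the AG sets, grouped on the x axis by low, middle and high score in the untreated and treated sets; points are cells and black bars group means. Ccnb2, Ndc80 and Rrm2 are high in most high-score cells, Cdkn1a and Krt14 overlap across all groups, and Sprr1a means are lower in high-score than in low-score cells of both sets.

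The keratinocyte markers differed far less than the cell-cycle genes. Of 16 basal markers 0 were higher and 1 was lower (6.25%, against 0.805% of all genes), with medians of -0.44 and -0.48, and of 22 suprabasal and cornified envelope markers 0 were higher and 1 was lower (4.55%), with medians of -0.21 and -0.27. Krt14 had medians of 6124 and 4325 TPM in low-score and high-score cells of the untreated set and of 6568 and 4882 TPM in the treated set, with differences of -0.61 and -0.58 and ranges that overlapped. Krt5 differed by -0.50 and -0.62 and Itgb1, an integrin of the basal layer, by -0.52 and -0.49. Of the members that missed the limit, Col17a1, a hemidesmosomal collagen, differed by -1.30 and -0.58, the metallothionein gene Mt2 by -1.11 and -0.32, and Itga3, an integrin chain, by 0.93 and 0.66.

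The lower suprabasal gene was Sprr1a (chr3:92483952-92485895), which encodes a small proline-rich precursor of the cornified envelope. In low-score cells its lowest, median and highest values were 0, 1909 and 19507 TPM in the untreated set and 0, 2441 and 20569.5 TPM in the treated set. In high-score cells they were 0, 316 and 4937 TPM and 0, 639 and 8705 TPM. Both groups spanned a wide range and overlapped, and the difference was -2.38 and -2.15. Of the 5 tested Sprr genes 2 were lower (40%, against 0.805% of all genes), the other being Sprr2b, which no list held, at -1.82 and -1.37. The remaining 3 were above 0 in both sets, with Sprr1b at 0.51 and 1.55, Sprr2d at 0.44 and 0.35 and Sprr2i at 0.40 and 0.15, and the medians of Sprr1b were 0 TPM in all 4 groups. Lgals7, the epithelial galectin-7 gene, differed by -2.59 and -0.19, Krtdap, a differentiation-associated gene, by 0.50 and 1.65, and Krt10, the first keratin of the suprabasal layers, by -0.31 and -1.41. Of 9 stress and simple-epithelium keratins 0 passed the limit, near the background of 4.06% higher and 0.805% lower, and their medians were 0.45 and -0.28. Krt17, a keratin of activated epidermis and one of the most abundant transcripts, differed by -0.52 and -0.32, Krt16 by -0.35 and -0.59, Krt18 by 0.47 and 0.18, and Krt19 by 1.04 and 0.39.

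Of 20 immediate early genes 1 was higher (5%, near the 4.06% of all genes) and 0 were lower. This was Ereg, which encodes the EGF-receptor ligand epiregulin, at 1.07 and 1.31, and it was above 1 TPM in 2 low-score and 8 high-score cells of each set. The list medians had opposite signs, at -0.56 and 0.70. Fosl1, a component of AP-1, differed by 1.44 and 0.82, Ier5 by 1.42 and 0.75, and Klf6, a Krüppel-like factor, by -0.77 on average of both sets. Of 9 beta-catenin target genes 0 passed the limit, again near the background (4.06% and 0.805%), with medians of -0.21 and 0.04. Lgr5, a stem cell receptor and Wnt target, differed by 0.10 and 0.92, Axin2, a feedback inhibitor of the pathway, by -0.22 and -0.60, Lgr6 by -0.46 and -0.27, and Cd24a by -0.21 and -0.10.

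Outside the lists, 319 genes were higher and 86 were lower. The 10 higher genes named here had the largest mean differences, gene models without a name left aside. Shcbp1, whose product takes part in midbody formation, had medians of 0 TPM in low-score cells and of 88.2 and 110.6 TPM in high-score cells, a difference of 5.75 and 6.03. Pimreg, a mitotic regulator, differed by 5.11 and 4.94, Cdkn3, a phosphatase that acts on CDKs, by 5.31 and 4.67, and Cdca3, a trigger of mitotic entry, by 4.65 and 5.04. Pole2, a subunit of DNA polymerase epsilon, differed by 4.37 and 3.98, and Esco2, the acetyltransferase that locks cohesin in S phase, by 3.70 and 3.92. Spdl1, Cenpi and Cenph, all of the kinetochore, differed by 3.81 and 4.44, by 2.95 and 5.01, and by 3.24 and 4.72. Ccdc18, a coiled-coil gene, differed by 2.99 and 4.80.

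The lower genes outside the lists had smaller differences than the higher ones. Tmeff1, which encodes a transmembrane protein with follistatin-like and EGF-like domains, led them. Its median was 13.3 TPM in low-score and 0 TPM in high-score cells of the untreated set, and 35.2 and 0 TPM in the treated set, a difference of -2.09 and -2.95. Tcp11l2 was above 1 TPM in 21 of 22 low-score and 14 of 22 high-score cells of the untreated set, with medians of 44.9 and 4.03 TPM. In the treated set its medians were 92.995 and 11.6 TPM, and the differences were -2.22 and -2.32. Slc25a1, the mitochondrial citrate carrier, differed by -1.25 and -2.59 and Ulk2, a kinase that starts autophagy, by -1.63 and -2.05. Nt5e, an enzyme that makes adenosine outside the cell, differed by -2.63 and -1.05, and S100a1, a calcium-binding protein gene, by -1.99 and -1.79. Serpinb1b, a protease inhibitor gene with close paralogues, differed by -2.67 and -1.71. Its values are uncertain because reads that map to several places were discarded. Plekhn1 and Ebpl differed by -2.38 and -1.32 and by -1.41 and -2.23. Leaving out cells with fewer than 5500 detected genes kept 380 of the 444 higher genes but only 42 of the 88 lower ones. Scoring the cells without Ccnb1 kept 402 and 35.

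**Figure D4:**
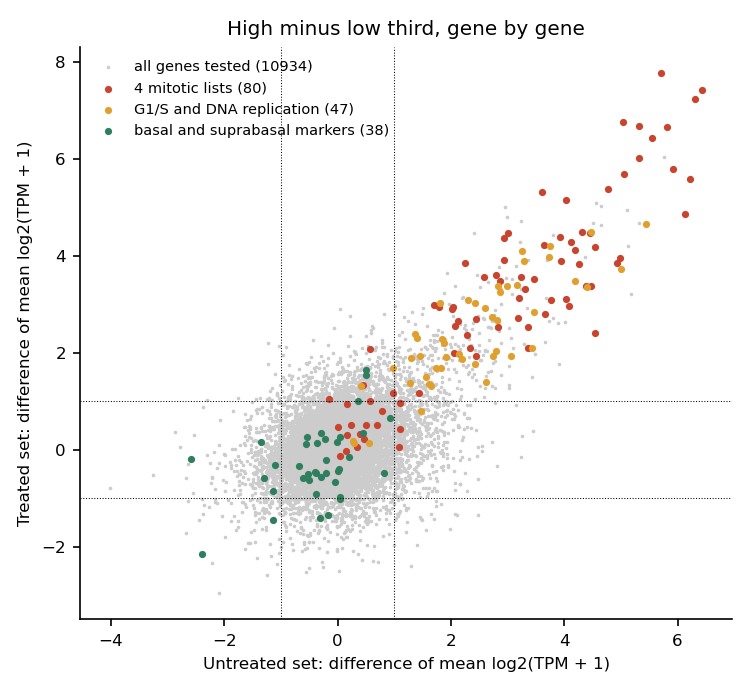
Difference of mean log2(TPM + 1), high-score minus low-score cells, for each tested gene in the untreated (x axis) and treated (y axis) set; grey points are all genes, coloured points 3 groups of lists, and dotted lines the limit of 1. Mitotic and G1/S genes extend to the upper right, with Ccnb2 at 6.44 and 7.42 and Ndc80 at 5.71 and 7.77, and most basal and suprabasal markers lie near 0, with Sprr1a at -2.38 and -2.15.

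High-score cells held somewhat more detected genes, counted as those above 1 TPM. The medians of low-score, intermediate and high-score cells were 6030, 6027 and 6447 in the untreated set and 6303, 6487 and 6515 in the treated set. Pairing high-score with low-score cells by their number of detected genes, within 300, left 11 and 13 pairs and gave 412 higher genes, of which 315 were among the 444, and 231 lower genes, of which 59 were among the 88. The share of TPM in ribosomal protein genes had medians of 9.88% and 10.7% in low-score and high-score cells of the untreated set and of 10.7% and 11.1% in the treated set. Of 77 such genes taken by symbol 0 were higher and 0 lower (against 4.06% and 0.805% of all genes), with medians of 0.21 and 0.10. The largest difference among them was that of Rps19bp1, which is named for a ribosomal protein but encodes a partner of it, at 2.13 and 0.82. Rps27a differed by 0.60 and 0.75, Rpl13 by 0.73 and 0.58 and Rpl36a by 0.51 and 0.62.

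No tested marker of another cell type passed the limit, in lists too short to stand apart from the background. Of 11 tested fibroblast markers 0 were higher and 0 lower (against 4.06% and 0.805% of all genes), and their summed level had medians of 914 and 922 TPM in low-score and high-score cells of the untreated set and of 1002 and 809 TPM in the treated set. Sparc, which was above 1 TPM in every AG cell, was the most abundant of them in every group, and the defining genes Dcn and Col3a1 were listed at 0 in every low-score and every high-score treated cell. In the untreated set Col3a1 was above 1 TPM in 2 low-score and 4 high-score cells, with a highest value of 161.6 TPM, and Dcn in 0 and 1. Vim, the intermediate filament gene of mesenchymal cells, was unequal, at 2.35 and 0.46. Col1a1 differed by 1.21 and 0.32, Twist1 by -0.74 on average of both sets and Fn1 by -0.63 and -0.16. Of the immune markers only Lyz2 and Csf1r were tested, at 1.72 and 0.68 and at 0.11 and 0.29, and the summed immune level had medians of 13.1 and 44.9 TPM in the untreated set and of 37.4 and 26.2 TPM in the treated set. Of the melanocyte markers Tyr differed by 0.43 and 0.85 and Pmel, which was above 1 TPM in 45 of 66 and 53 of 64 cells, by -0.76 and 0.42, with Mlana listed at 0 in all 4 groups. The endothelial genes Kdr and Tek had a median sum of 0 TPM. The part of these cell types in the differences was not tested.

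Intermediate cells lay between the groups for most higher genes. The mean of intermediate cells fell between those of low-score and high-score cells in both sets for 302 of the 444 higher genes (68.0%) and for 44 of the 88 lower ones. Across the higher genes the median position of intermediate cells was 0.24 and 0.30 of the way from low-score to high-score cells. Across the lower genes it was 0.54 and 0.58. The intermediate group was itself cut by the score, so these positions are a description only. For Ccnb2 the medians of intermediate cells were 0 and 49.8 TPM, and single intermediate cells reached 2745 and 2219.7 TPM.

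The same score was applied to the GHA501A series, which holds 71 untreated and 69 treated cells that share no cells with the AG sets. Its cells differ in kind: Krt14 had medians of 2.25 and 10.1 TPM there, against 4864 and 4997 TPM in the AG sets, and Col1a1, a fibroblast collagen, had medians of 1123 and 909 TPM, against 0 and 0 TPM. They also scored higher, with medians of 5.06 and 4.42, and their low-score cells had median scores of 2.49 and 2.42. Of the 444 higher genes, 245 (55.2%) also differed by at least 1 in both GHA501A sets, where 4.84% of all genes did so. Of the 88 lower genes only 2 (2.27%, against 0.311% of all genes) were lower by 1 in both, 29 (32.95%, against 17.7% of all genes) were below 0 in both, and 22 were above 0 in both (against 36.8% of all genes). Tcp11l2 was lower in the GHA501A sets as well, at -1.59 and -2.34. Sprr1a differed there by -1.17 and -0.85. The median differences of the 4 mitotic lists were 3.23 and 3.20, against 3.10 and 3.10 in the AG sets.

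Over the 6 cell-cycle lists, 120 tested genes were higher in the AG sets, of which all but 18 also differed by at least 1 in both GHA501A sets, and 16 further genes did so in the GHA501A sets alone. The 18 were mostly of the G1/S list, such as Mcm5, Pcna, Cdt1 and the GINS subunits Gins2, Gins3 and Gins4. The 16 of the GHA501A sets included several that were barely listed in low-score or high-score AG cells. Kif20a, a kinesin of cytokinesis, was above 1 TPM in 2 of 22 and 3 of 21 high-score AG cells, with highest values of 4.86 and 9.37 TPM. In high-score GHA501A cells it was above 1 TPM in all 23 and all 23 cells, with medians of 174.8 and 213 TPM. Racgap1, a partner of the cytokinetic spindle, had highest values of 2.97 and 0.93 TPM in high-score AG cells and medians of 86.3 and 93.6 TPM in high-score GHA501A cells. Pttg1 had medians of 0 and 0 TPM against 228 and 177.1 TPM, and Cenpm, a centromere protein gene, 0 and 0 TPM against 330 and 331 TPM. Pttg1 and Cenpm were higher even in low-score GHA501A cells, at medians of 62.2 and 31.6 TPM and of 132.1 and 46.6 TPM. The series differ in library set and in cell makeup, which cannot be told apart, and the cause of these gaps was not tested.

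**Figure D5:**
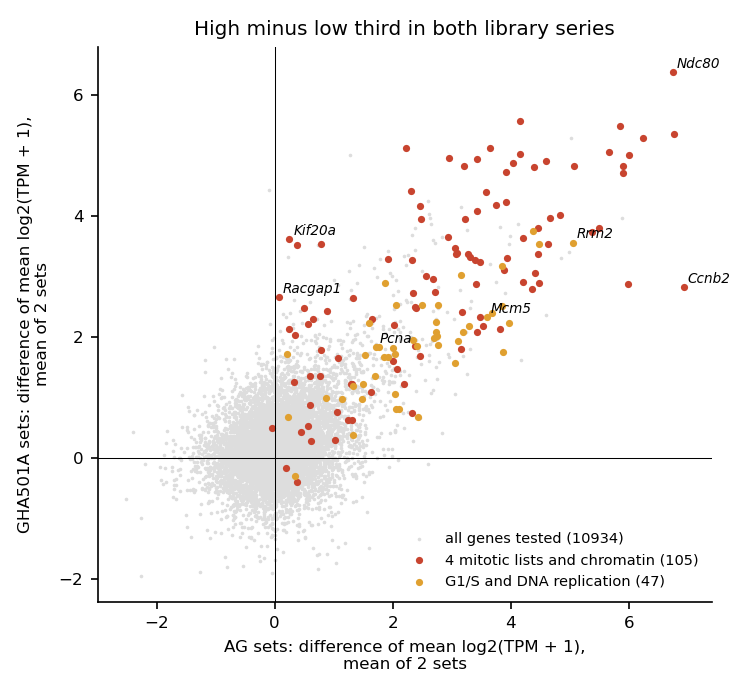
Difference of mean log2(TPM + 1), high-score minus low-score cells, as the mean of both sets of the AG series (x axis) and of the GHA501A series (y axis); grey points are all tested genes and coloured points cell-cycle list genes. Most list genes lie to the upper right, and Kif20a and Racgap1 lie near 0 on the AG axis and above 2 on the GHA501A axis.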

How the data were processed

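The values used are the TPM as deposited by the authors, who per their methods checked reads with FastQC, trimmed them with cutadapt, aligned them to GRCm38 with TopHat, discarded reads mapping to several places, summed reads over genes by featureCounts and derived TPM from those sums. Versions and the annotation are not given in the sources used here. Discarding such reads lowers genes with near-identical copies. It covers 14145 genes in 294 columns. Labels were lacking for 16 columns, which were set aside, and 8 cells whose name and treatment label disagreed entered only as alternatives. Capture sites seen by imaging to hold doublets or dead cells had been left out by the authors, and no doublet caller was run here.

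Genes above 1 TPM in more than 5 AG cells were tested, 10934 without the 6 score genes. Differences are means of log2(TPM + 1), high-score minus low-score cells. A difference of at least 1 in the same direction in both sets was the limit. Cells were not treated as replicates and no p-values were computed. The members, gene lists and rules were chosen with earlier results of these data known. The genes named are the score genes, from each list up to 4 with the largest mean difference of one sign in both sets, and outside the lists the 10 largest in each direction among genes past the limit and above 1 TPM in at least 30% of the cells of the higher group. Of the genes this rule picks, 2 are not reported here. Further list members (Aurka, Aurkb, Cenpw, Wee1, Pcna, Ccne1, Cdc6, E2f1, Ccnd1, Cdk4, Cdkn1a, Krt14, Krt5, Krt10, Itgb1 and the genes set beside the GHA501A series) were named after their values were seen. So was Sprr2b, which no list held. Coordinates are those of GENCODE on GRCm38, and promoters are RefSeq's. A printed promoter had to lie within 100 bases of the GENCODE gene start and stops before it, a condition added after seeing the data. The software was matplotlib 3.10.9, scipy 1.17.1, pandas 2.3.3, numpy 2.4.6 and Python 3.11.15, and the steps were tested on simulated data. Alternatives covered a split into 4 parts in place of 3, a pseudocount of 0.1, log2 of the mean TPM, other gene filters, the 8 cells, cells with many genes or paired by genes, rescaling without ribosomal protein genes, centring, the score without each gene and each set alone. Leaving out cells dominated by 1 gene was added after seeing the data.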

Additional observations from a re-analysis of the deposited data

Results flagged for a closer look

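For 6 lists the median differences (high-score minus low-score cells, log2(TPM + 1)) had opposite signs in the untreated and treated sets. These were -0.56 and 0.70 for immediate early genes, 0.45 and -0.28 for stress and simple-epithelium keratins, -0.21 and 0.04 for beta-catenin targets, 0.19 and -0.0085 for fibroblast markers, -0.17 and 0.64 for melanocyte markers and -0.0018 and 0.04 for G1 cyclins and kinases. Among immediate early genes the split was widest for Ier2, at -1.07 and 1.14, and Areg, which encodes amphiregulin, at -0.39 and 1.62. Areg was listed at 0 in every low-score treated cell and was above 1 TPM in 8 of 21 high-score treated cells. The difference between the sets was not tested for any of these lists, and with 1 set per treatment label it cannot be told apart from a difference between library sets.

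Ebpl was past the limit in the AG sets and went the other way in both GHA501A sets. Its mean difference was -1.82 in the AG sets and 0.44 in the GHA501A sets. This contrast between the series was not tested either.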

How the results depend on the processing

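The count of higher genes stayed within 1.5 times of 444 under every alternative except a pseudocount of 0.1, which gave 866, and either set alone, which gave 1030 and 1046. The count of lower genes was less stable: it was 206 with that pseudocount, 273 with log2 of the mean TPM, 231 with cells paired by number of genes detected, 47 when the score left out Ccnb1, and 528 and 506 in either set alone, against 88. With log2 of the mean TPM, 297 of the 555 higher genes were among the 444, and 38 of the 273 lower ones among the 88. Each single set drops the demand for agreement. The smaller pseudocount also entered the score and so regrouped cells, with 19 of the 21 treated and 22 of the 22 untreated high-score cells shared. The cause of the other shifts was not tested. All 57 named genes past the limit kept their sign under all 20 alternatives, whereas 6 of the other 34 named genes changed sign under at least 1. The 57 include the 6 score genes, whose own values cut the groups, and the others were picked for large differences. Their kept signs therefore give no support. For the 57, some alternatives could not change a sign at all. The limit already demands agreement of the single sets, and other gene filters leave the values as they are. The list medians of mitotic, chromatin, G1/S, CDK inhibitor, basal and suprabasal genes kept their sign under all 20 alternatives. That of ribosomal protein genes did so under the 19 run for it. The medians of G1 cyclins, beta-catenin targets, stress keratins, immediate early genes and of fibroblast, immune and melanocyte markers did not keep their sign throughout. No paired analysis was possible because the numbers in the cell names only name cells and the result comes from no test. The matching of cells by detected genes pairs cells of like complexity, not replicates.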

Other observations

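Gene families were also picked after the values were seen, so that their choice gives no support. Their counts stand beside 4.06% higher and 0.805% lower of all genes. Of 7 Haus genes, for the augmin complex that branches spindle microtubules, 5 were higher in high-score cells (71.4%), with median differences of 2.39 and 2.04. Haus1 differed by 2.70 and 2.52. Of 18 centromere protein genes named Cenp 13 were higher (72.2%), but 7 of the 18 were already in the kinetochore list, and of the other 11 genes 7 were higher. Of 18 nucleoporin genes named Nup 7 were higher (38.9%), and of 8 Fanconi anaemia genes 4 were higher (50%), none of the 3 families having a lower member. Of 41 replication-dependent histone genes of the Hist1h cluster 12 were higher (29.3%), with medians of 0.69 and 1.58. Histone transcripts largely lack poly(A) tails and the family shares near-identical sequences, so these values are uncertain.

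Of 28 genes of serine, one-carbon and amino acid supply and of the stress response known to govern it, 9 were higher (32.1%) and 0 lower. Of these 9, Trib3 is a stress-response regulator and the others are enzymes or transporters. Asns, which makes asparagine, had medians of 14.7 and 92.4 TPM in low-score and high-score cells of the untreated set and of 62.7 and 115.8 TPM in the treated set, differences of 2.31 and 1.75. Phgdh, the first enzyme of serine synthesis, had medians of 5.51 and 141.6 TPM and of 35.5 and 126.8 TPM, differences of 2.67 and 2.28. Mthfd2, a mitochondrial folate enzyme, differed by 2.43 and 1.80, and Slc7a5, an amino acid transporter, by 1.35 and 2.40. In the GHA501A sets the median differences of these genes were 0.24 and 1.10, against 0.73 and 0.49 in the AG sets.

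Of 43 lysosomal genes 7 were lower (16.3%) and 0 higher, with medians of -0.30 and -0.29. Ctsd, which encodes the protease cathepsin D, had medians of 581 and 275 TPM in low-score and high-score cells of the untreated set and of 791 and 378 TPM in the treated set, differences of -1.69 and -1.07. The ranges overlapped in both sets. Gm2a, an activator of ganglioside breakdown, differed by -1.68 and -1.29, and Tpp1, a lysosomal peptidase, by -1.61 and -1.18. In the GHA501A sets the medians of these genes were -0.04 and 0.20.

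A single gene took up much of the TPM in 2 cells. In 1 high-score untreated cell 32.7% of TPM fell to 1 gene model, and in 1 intermediate treated cell 23.3% did. Without these cells 466 genes were higher and 82 lower, of which 435 and 79 were among the 444 and 88.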
